A study of Macaca fascicularis with 9 samples.

Results

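The 7 mitochondrially encoded subunits of respiratory complex I, ND1, ND2, ND3, ND4, ND4L, ND5 and ND6, were followed in single nuclei of monkey thalamus. They were chosen by name, with earlier results of these data known, so the tests and counts of members below are not independent support. All 7 were found among 29128 features of the deposited count matrix. Thalamus of 9 female cynomolgus monkeys (Macaca fascicularis), 3 in each group, was dissected and frozen, and nuclei sorted with a DNA stain went into 1 droplet library (10x Genomics) for each animal. The saline group received 4 biweekly doses of saline by vein. The ASO group received 1 intrathecal dose of 4 mg of an antisense oligonucleotide against MALAT1, a long non-coding RNA of the nucleus. The OTV group was given OTV:MALAT1 (30 mpk) by vein in 4 biweekly doses. Tissue was taken 2 weeks after the final dose in each group. No group given saline intrathecally is among these samples, so route and agent cannot be told apart in the ASO group.

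Complex I (NADH:ubiquinone oxidoreductase) takes electrons from NADH, passes them to ubiquinone and pumps protons across the inner mitochondrial membrane. The 7 ND proteins form the core of its membrane arm, and the NDUF proteins, encoded in the nucleus, make up the rest. The mitochondrial genome is transcribed into long RNAs that are cut into mRNAs, so its genes do not have promoters of their own. ND6 lies on the opposite strand from the other 6, and ND4L and ND4 overlap and share 1 mRNA. Mitochondrial RNA lies outside the nucleus, so a library of sorted nuclei holds little of it. Whether the UMIs (unique molecular identifiers, 1 per captured molecule) came from RNA attached to nuclei, from free RNA or from nuclear copies of mitochondrial DNA was not tested.

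The matrix held 79994 nuclei and 46498 UMIs of the members, with 19981249 to 98850459 UMIs in all and a median of 2579 to 7791 UMIs per nucleus by animal. MALAT1, the targeted RNA, took 5.38% to 6.36% of UMIs in the saline animals, 4.15% to 5.60% in the ASO animals and 3.12% to 3.80% in the OTV animals. Between libraries, 758 cell barcodes were found in 2 libraries and 2 in 3 libraries, of 79232 distinct barcodes. The authors' cell types showed their own markers, but the nuclei named myeloid also held endothelial markers (CLDN5, FLT1, PECAM1 and VWF, 3 of 4 in the file), summed to 185 to 890 CPM (counts per 1000000 UMIs of the sample). Those named neurons did so in some animals, at 3.94 to 1002 CPM. In oligodendrocytes that sum was 6.04 to 14.01. Astrocyte markers in the myeloid nuclei summed to 1892 to 2548 CPM in saline, 783 to 1210 in ASO and 683 to 1616 in OTV, so that both other groups lay below saline. The part of these markers in the myeloid and neuron values below was not tested.

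The 7 mRNAs were scarce, found in 20770 nuclei, and their level was highest in OTV and lowest in ASO. Summed over the 7 genes and all nuclei, the level was 79.3, 34.2 and 12.5 CPM in saline animals 1 to 3. In ASO animals 1 to 3 it was 0.579, 1.08 and 0.611. In OTV animals 1 to 3 it was 422, 164 and 265. The 3 groups did not overlap, and the highest saline animal was 6.34 times the lowest, against 2.57 times in the OTV group. Saline animal 3, the lowest, also stood apart in make-up: 527 of its 2956 nuclei were named neurons, oligodendrocyte markers summed to 1613 CPM against 4304 to 8211 in the other animals, and neuron markers to 1742 against 187 to 510. Their part in its level was not tested, and it was also the lowest saline animal within each of the 4 types given below. The group means were 42.0 ± 34.1 in saline, 0.757 ± 0.282 in ASO and 284 ± 130 in OTV (SD, n = 3). In these sums, fewer mitochondrial molecules per nucleus and fewer nuclei that carry them cannot be told apart.

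ND1, the subunit where the membrane arm meets the ubiquinone site, was at 32.0, 12.4 and 4.70 CPM in saline animals 1 to 3, at 0.419, 0.658 and 0.467 in the ASO animals and at 118, 44.3 and 72.7 in the OTV animals. The groups did not overlap. Over saline, ND1 in OTV was higher by 2.35 on the log2 scale (SE 0.65; edgeR's quasi-likelihood test, adjusted p = 0.0416). The gene was called in 5 of 14 alternative runs, which changed the processing or left out 1 animal.
ND2, ND4 and ND5, the 3 antiporter-like subunits that form the proton channels, followed the same order. ND2 was at 11.9, 4.76 and 1.45 CPM in saline, at 0.160, 0.324 and 0.0719 in ASO and at 80.4, 31.3 and 56.7 in OTV. ND4 was at 21.1, 8.48 and 2.15 in saline and at 126, 38.5 and 56.5 in OTV, while the ASO animals held 1 ND4 UMI in all. None of these 3 genes had overlapping groups.
ND5 was at 5.73, 3.49 and 2.00 CPM in saline, at 0, 0.0708 and 0.0539 in ASO and at 49.96, 31.3 and 46.2 in OTV. Its saline and OTV animals varied least among the members, with a highest animal 2.86 and 1.60 times the lowest. ND5 was higher in OTV than in saline by 3.59 on the log2 scale (SE 0.56; edgeR adjusted p = 0.00489).

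ND3, a small subunit at the joint of the membrane arm, was at 5.50, 3.55 and 1.45 CPM in the saline animals, at 31.5, 11.01 and 18.8 in the OTV animals, and had 0 UMIs in every ASO animal. ND4L, another small membrane subunit, was at 2.14, 1.29 and 0.2502 in saline and at 14.3, 7.15 and 11.3 in OTV, and it too had 0 UMIs in every ASO animal. Against a floor of 3 UMIs over the ASO group, ND3 was at least 323-fold lower and ND4L at least 119-fold lower than in saline, taking each group's UMIs together. These bounds were 212 and 78.3 without ASO animal 1, and 187 and 69.4 without ASO animal 2. ND6 was the exception to the separation of saline from OTV. It was at 0.980, 0.286 and 0.501 CPM in saline and at 1.95, 0.755 and 2.88 in OTV, so that the lowest OTV animal lay below the highest saline animal. ND6 passed the filter on low counts in oligodendrocytes and in all nuclei, and in no other type tested.

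**Figure D1:**
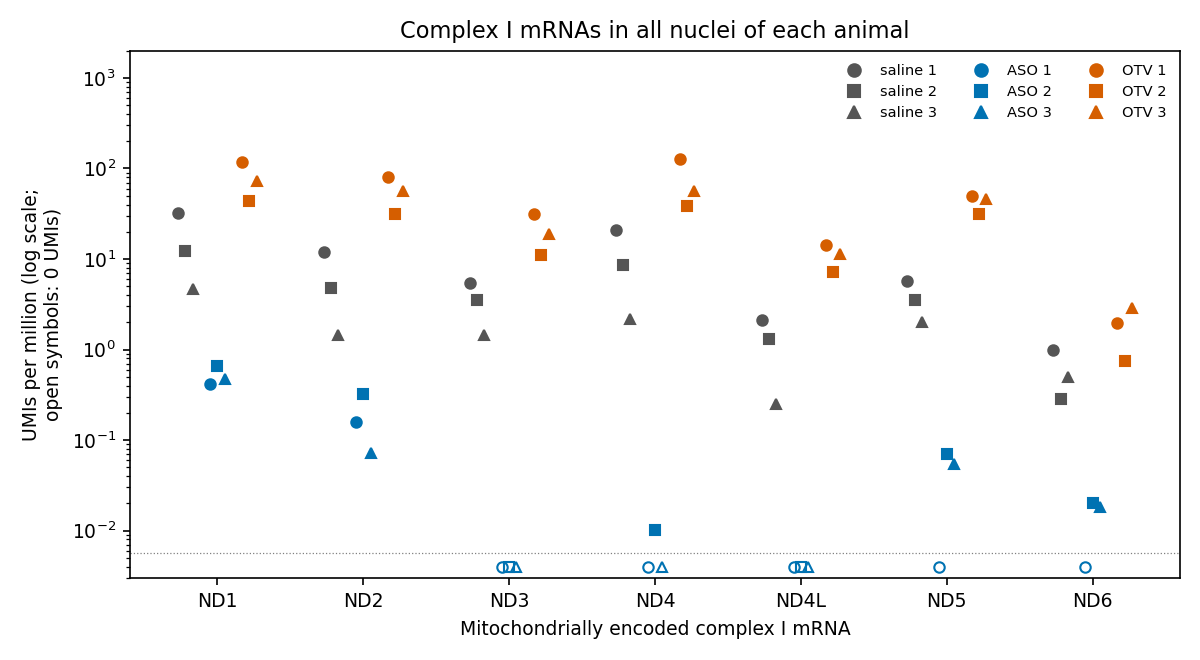
Level of each complex I mRNA (x axis) in all nuclei of each animal, in CPM on a log axis; each point is 1 animal, and open symbols below the dotted line had 0 UMIs. ND3 and ND4L are at 0 UMIs in all 3 ASO animals, and ND6 is the only member whose saline and OTV animals overlap.

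Tested over all 21854 genes that passed the filter, 6 of the 7 members rose in OTV over saline, where 5.72% of all genes tested were called higher. ND2 was higher by 3.30, ND3 by 2.63, ND4 by 2.89 and ND4L by 3.20 on the log2 scale (edgeR adjusted p = 0.0221, 0.0288, 0.0355 and 0.0255). ND6 differed by 1.76 (SE 0.65) with an adjusted p of 0.105 by edgeR. The median of the 7 was 2.89, against -0.06 over all genes. The same 6 had every OTV animal above every saline animal, as had 12.8% of genes tested. The count rested on single animals: it was 1, ND5, without saline replicate 2, without OTV replicate 1 or without OTV replicate 3, and 3 without OTV replicate 2. It was 6 without saline replicate 3.

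In ASO against saline, 1 of the 7 passed the test, where 0.0137% of all genes tested were called lower. That member was ND5, with a difference of -6.42 (SE 0.72; edgeR adjusted p = 0.0401). The other 6 differed by -4.95 to -10.71 with edgeR adjusted p of 0.0616 to 0.147, and all 7 had an unadjusted p under 0.05. All 7 had ASO animals below every saline animal, as had 6.16% of genes tested. DESeq2's Wald test called all 7, where it called 0.802% of genes lower, and edgeR called 5 without saline replicate 3 and 0 without any other single animal. Between OTV and ASO all 7 rose, by 7.08 to 13.60 on the log2 scale (edgeR adjusted p of 0.000703 to 0.00174), where 6.83% of genes were called higher. ND3 and ND4L had 0 UMIs in the ASO animals and ND4 had 1, so the sizes of their log2 differences from ASO are not measured values. By the floor of 3 UMIs over the ASO group, ND3 was at least 323-fold and ND4L at least 119-fold lower than in saline. The ASO and OTV comparisons with saline share the saline animals.

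By cell type the order of the groups was the same in oligodendrocytes, oligodendrocyte precursor cells (OPCs), myeloid cells and astrocytes, the 4 types with at least 20 nuclei in every animal. In oligodendrocytes, the myelin-forming cells, the summed level was 86.3, 32.1 and 14.2 CPM in saline, 0.586, 1.11 and 0.694 in ASO and 414, 165 and 237 in OTV. In OPCs it was 57.8, 29.8 and 12.6 in saline, 0.371, 0.743 and 0.649 in ASO and 295, 136 and 285 in OTV. In myeloid cells it was 75.8, 32.9 and 11.95 in saline, 0.710, 0.793 and 0.384 in ASO and 393, 148 and 291 in OTV. In astrocytes it was 81.6, 54.7 and 26.4 in saline, 0.718, 1.10 and 0.264 in ASO and 523, 176 and 361 in OTV. In each of the 4 types every ASO animal was below every saline animal and every OTV animal above. The means of OTV and saline stood at a ratio of 6.16 in oligodendrocytes, 7.14 in OPCs, 6.89 in myeloid cells and 6.51 in astrocytes. As log2 ratios these were 2.62, 2.84, 2.78 and 2.70, and without saline animal 1, the highest of its group, they were 3.56, 3.49, 3.63 and 3.12. Over all nuclei the log2 ratio was 2.76, and 3.60 without that animal.

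**Figure D2:**
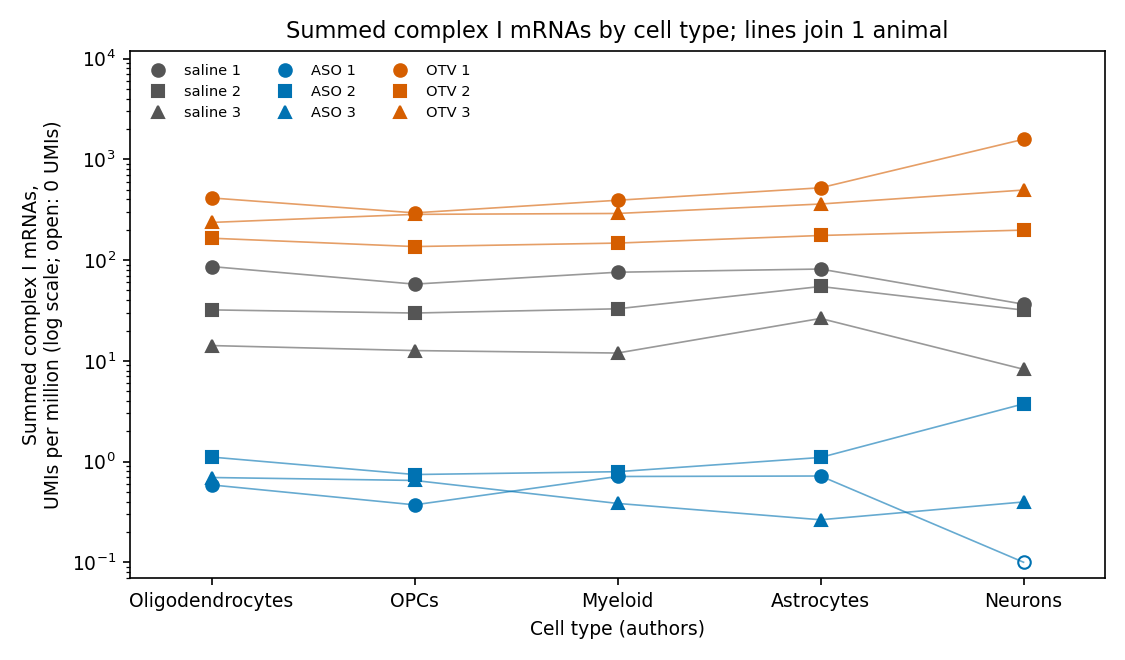
Summed level of the 7 complex I mRNAs (y axis, CPM, log scale) in each cell type of the authors, with a line joining the values of 1 animal and open symbols for 0 UMIs. The lines of the 3 groups stay apart in every type shown; neurons in ASO animals 1 and 2 rest on 18 and 17 nuclei.

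Member by member, 6 of 7 rose in OTV over saline in oligodendrocytes (7.52% of genes tested called higher), 5 of 6 tested in OPCs (10.2%), 5 of 6 in myeloid cells (4.76%) and 6 of 6 in astrocytes (6.27%). The member that missed the threshold was ND6 in oligodendrocytes (difference 2.12, edgeR adjusted p = 0.0867) and ND4 in OPCs and myeloid cells (2.69 and 2.56, edgeR adjusted p = 0.0599 and 0.0955). In oligodendrocytes the count was 1 without saline replicate 2, 2 without OTV replicate 1 and 3 without OTV replicate 3. In myeloid cells it was 2 without any one of those 3 animals and 3 without ASO replicate 2, and in astrocytes 3 without OTV replicate 3. In OPCs it stayed at 5 or 6 without any single animal. ND4L and ND6 had 0 UMIs in oligodendrocytes of saline animal 3, and 0 and 2 UMIs in those of the ASO group. Both passed the filter on low counts, which asks for enough counts in 3 animals, only with the OTV animals, where they were highest. In OPCs, myeloid cells and astrocytes ND4L had 22, 13 and 27 UMIs over the saline animals and 0 in ASO. ND3 in myeloid cells had 25 and 0. With so few counts in saline, these too passed only with the OTV animals. A call of a member that passed in this way is no support of its own. Which animals carried the other members past the filter in these types was not tested.
Oligodendrocyte markers were also higher with OTV in the other types: edgeR called 4 of 6 higher in OPCs (median log2 difference 1.16), 3 of 6 in astrocytes (0.83) and 2 of 6 in myeloid cells (0.67). Of all genes tested, 10.2%, 6.27% and 4.76% were called higher there. Summed, these markers were at 380 to 627 CPM in OPCs of the saline animals, 725 to 1077 in OTV and 804 to 1060 in ASO. In astrocytes they were at 346 to 405 in saline, 470 to 723 in OTV and 439 to 691 in ASO, and in myeloid cells at 733 to 869, 1058 to 1643 and 916 to 1471. None of the 6 was at 0 in any type. Markers of the type itself were lower in every OTV animal than in every saline animal in OPCs (4355 to 5462 against 5799 to 6638 CPM). The same held in myeloid cells (4300 to 5163 against 5498 to 6253), while in oligodendrocytes and astrocytes the groups overlapped. The part of all these markers in the members' values was not tested.
In ASO against saline, 5 of 7 fell in oligodendrocytes (0.255% of genes called lower), 3 of 6 in OPCs (0.148%), 1 of 6 in myeloid cells (0.0868%) and 0 of 6 in astrocytes (0%). The 5 in oligodendrocytes were ND1, ND2, ND3, ND4 and ND5, with differences of -4.99 to -10.56. The 3 in OPCs were ND1, ND3 and ND5, and the 1 in myeloid cells was ND5. In astrocytes all 6 had an edgeR difference of -5.15 to -8.66 and an adjusted p of 0.109 to 0.305 (unadjusted p under 0.05 in all 6), with each ASO animal below each saline animal, as for 4.26% of genes tested there. DESeq2's Wald test called 6 members in each of OPCs, myeloid cells and astrocytes, where it called 0.752%, 1% and 0.213% of genes lower. Without ASO replicate 1, or without ASO replicate 2, the counts in ASO against saline fell to 1 in oligodendrocytes, and to 0 in OPCs and in myeloid cells. ND3, ND4, ND4L and ND5 had 0 UMIs in ASO OPCs, myeloid cells and astrocytes. In ASO oligodendrocytes ND3 and ND4L had 0 and ND4 had 1. The sizes of these log2 differences are therefore not measured values. By the floor of 3 UMIs over the ASO group, ND3, ND4, ND4L and ND5 in astrocytes were at least 23.5-fold, 56.6-fold, 8.26-fold and 23.2-fold lower. Whether the differences between ASO and saline were unequal between types was not tested.

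The 4 types were compared within each animal. Over 6 animals with at least 20 member UMIs in both types, the summed share of UMIs in OPCs was below that in astrocytes by 0.66 ± 0.30 on the log2 scale (SD, n = 6), and lower in 6 of 6 animals (exact sign-flip test, two-sided, p = 0.0312, adjusted over 6 pairs of types p = 0.0938). The value of 0.0312 is the smallest that 6 animals can give. Oligodendrocytes were below astrocytes by 0.44 ± 0.39 in 5 of 6 animals (exact p = 0.0625, adjusted p = 0.0938), and saline animal 1 was the exception.
Myeloid cells were below astrocytes by 0.36 ± 0.24 in 5 of 5 animals, and OPCs were below myeloid cells by 0.22 ± 0.17 in 5 of 5 (exact p = 0.0625 for each, the smallest that 5 animals can give, adjusted p = 0.0938). Oligodendrocytes were above OPCs by 0.22 ± 0.30 in 5 of 6 animals (exact p = 0.125, adjusted p = 0.15). Oligodendrocytes and myeloid cells differed by 0.02 ± 0.20 (exact p = 0.875). With 5 or 6 animals to a pair, no p adjusted over 6 pairs could fall under 0.05, whatever the values. The adjusted test therefore decides nothing about any pair. Ordered by these within-animal differences, astrocytes stood highest and OPCs lowest of the 4 types, as a description. The place of OPCs turned in nuclei with 1000 to 5000 UMIs, where oligodendrocytes minus OPCs was -0.40 and OPCs minus myeloid cells 0.56 over 4 animals (exact p = 0.25 and 0.125, adjusted p = 0.3 for both). Neurons were not in these tests, having under 20 nuclei in ASO animals 1 and 2. They were at 36.5, 31.9 and 8.24 CPM in saline animals 1 to 3, below the astrocytes of each, and at 1585, 199 and 497 in OTV animals 1 to 3, above the astrocytes of each. All types of an animal come from 1 library and share its free RNA.

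The type differences in the saline and OTV animals could be compared for 3 pairs. The difference of OPCs from astrocytes was -0.81 in saline and -0.51 in OTV (exact permutation test, two-sided, p = 0.2). That of oligodendrocytes from astrocytes was -0.53 and -0.34 (exact p = 0.7), and that of oligodendrocytes from OPCs was 0.28 and 0.17 (exact p = 0.8). With 3 animals against 3 the smallest p is 0.1. The ASO animals had too few member UMIs in OPCs, myeloid cells and astrocytes for this comparison.

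Among the authors' 17 clusters, the same order of groups held in each cluster with at least 20 nuclei in an animal of each group. In the oligodendrocyte clusters 0, 1, 2, 3 and 5, the saline medians lay between 27.4 and 33.4 CPM and the OTV medians between 213 and 311. The other oligodendrocyte clusters lay outside these ranges, cluster 8 at medians of 37.7 in saline and 385 in OTV, and cluster 10 at 55.4 and 167. The 385 and the 55.4 are midpoints of 2 animals, without OTV animal 3 (1 nucleus) and saline animal 3 (9 nuclei). Within animals, cluster 10 was below cluster 0 in the saline and OTV animals with at least 20 nuclei, by ratios of 0.676 to 0.975. In saline animal 3 the ratio was 0.949, from 1 UMI in 9 nuclei of cluster 10, too few to tell a direction. Cluster 8 over cluster 0 was 1.13, 1.14 and 0.707 in saline animals 1 to 3, and 1.31 and 1.73 in OTV animals 1 and 2. The 0.707 rests on 2 UMIs in cluster 8 and the 1.73 on 11. Cluster 12, a small astrocyte cluster, was above cluster 6, the large one, in 6 of 6 saline and OTV animals, by a ratio of 1.06 to 3.71. The ratios of 3.42 in saline animal 1 and 3.71 in OTV animal 2 rest on 9 and 5 nuclei, under the minimum of 20. In the other animals the ratio was 1.06 to 1.67. Cluster 12 rested on 5, 6 and 5 member UMIs in saline animals 1 to 3 and on 7 in OTV animal 2. Without the nucleus highest in member UMIs, saline animal 3 was at 21.7 CPM in cluster 12, below its 25.6 in cluster 6. Cluster 14, an OPC cluster, was at 772 CPM in OTV animal 1 (103 nuclei), against 273 in the larger OPC cluster 4 of that animal. In saline animal 1 the same cluster was at 741, from 16 UMIs in 14 nuclei, and in saline animal 3 it was at 7.40, below cluster 4. Since clusters were drawn from the same counts, these values are a description.

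**Figure D3:**
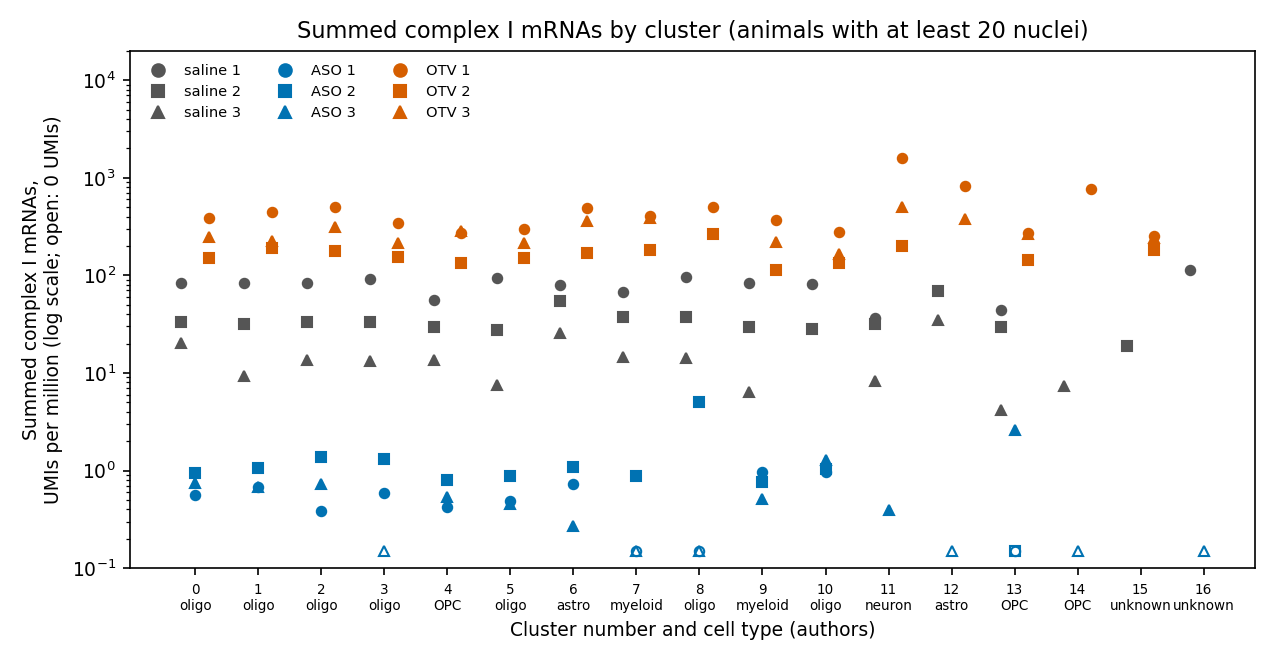
Summed level of the 7 complex I mRNAs (y axis, CPM, log scale) in the authors' 17 clusters (x axis, with cell type), 1 point for each animal with at least 20 nuclei in the cluster and open symbols for 0 UMIs. OTV points lie above saline points, and saline points above ASO points, in each cluster where all 3 groups appear. In clusters 8, 9, 12, 13 and 14 the lowest saline and highest ASO points rest on few UMIs. Cluster 11, the neurons, spans the widest range in OTV.

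The make-up of the 7-gene sum also differed. Levels are not compared between genes, since no transcript lengths were used; a gene's share of the sum is compared between animals. ND1 made up 40.4%, 36.2% and 37.6% of the member UMIs in saline animals 1 to 3 and 27.9%, 27.0% and 27.4% in OTV animals 1 to 3. ND2 made up 15.0%, 13.9% and 11.6% in saline and 19.1%, 19.0% and 21.4% in OTV. Neither gene had overlapping groups, and both exact permutation tests gave p = 0.1, the smallest that 3 against 3 allows (adjusted over 7 genes p = 0.28). As a ratio, ND2 to ND1 was 0.371, 0.384 and 0.309 in saline and 0.682, 0.706 and 0.781 in OTV. The shares of ND3, ND4, ND4L, ND5 and ND6 gave exact p of 0.2 to 0.7.
The ratio of ND5 to ND4 was 0.272, 0.412 and 0.930 in saline and 0.396, 0.812 and 0.818 in OTV, so the groups overlapped. Between cell types, none of the 42 comparisons of a member's share within animals passed the threshold (lowest exact p = 0.0625, the smallest 5 animals can give, adjusted p = 0.525).

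The ASO animals kept UMIs of some members and not of others. Over the 3 ASO animals, ND1 had 125 UMIs and ND2 had 49, whereas ND3 and ND4L had 0, ND4 had 1, ND6 had 3 and ND5 had 10. In the saline animals ND4 had 2331 UMIs, against 3531 of ND1. Taking each group's UMIs together, ND1 was 36.8-fold lower in ASO (95% exact interval 30.8 to 44.4) and ND2 35.1-fold lower (26.4 to 47.6). ND5 was 99.8-fold lower (54.0 to 209), ND4 3038-fold lower (545 to 120032) and ND6 46.5-fold lower (15.5 to 229). These intervals cover counting error only, not the spread between animals. The folds moved by over 1.5 times without some animals, a check chosen after the values were seen. Without saline animal 1 they were 20.7 for ND1, 19.9 for ND2, 1721 for ND4 and 25.6 for ND6. Without ASO animal 2 they were 58.7 for ND2, 193 for ND5 and 81.0 for ND6, while ND4, then at 0 UMIs, was at least 588-fold lower. Without ASO animal 1 they were 1991 for ND4, 65.4 for ND5 and 30.5 for ND6.

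In the order of the feature list, which for the 13 mitochondrial mRNAs runs ND1, ND2, COX1, COX2, ATP8, ATP6, COX3, ND3, ND4L, ND4, ND5, ND6 and CYTB, the members with 0 or 1 UMI in ASO (ND3, ND4L and ND4) stood together after COX3. The 6 genes after COX3 made up 26.8%, 24.6% and 26.8% of the 13-gene UMIs in saline animals 1 to 3 and 26.5%, 26.2% and 27.4% in OTV animals 1 to 3. In the ASO animals they made up 0% of 299 UMIs, which at 3 counts of the total allows a share of up to 1.00%, 1.53% of 784 and 1.81% of 276. Where the count was above 0, the Wilson 95% interval reached at most 4.17%. CYTB, the complex III subunit at the end of this stretch, had 3 UMIs in ASO and 4182 in saline, while COX3, the oxidase subunit just before ND3, had 451 and 7533. The folds did not part cleanly at COX3. COX2, another oxidase subunit, which stands before it, was 82.6-fold lower in ASO (95% exact interval 68.6 to 100.3; 113 UMIs against 7159; 54.4 without saline animal 1), close to ND5, and in astrocytes it had 1 UMI against 646. ND6, which stands after it, had an interval that overlapped that of ND1. COX1, ATP6, ATP8 and COX3 were 8.44-fold, 10.9-fold, 6.77-fold and 21.8-fold lower. Without ASO animal 2, ATP6 was 17.5-fold and ATP8 11.8-fold lower, and without saline animal 1 ATP6 was 6.93-fold lower. By type, the stretch after COX3 had 16 of 1164 mitochondrial UMIs in ASO oligodendrocytes, 0 of 81 in OPCs, 0 of 53 in myeloid cells and 0 of 46 in astrocytes. By the same floor of 3 counts, the counts of 0 allow shares of up to 3.70%, 5.66% and 6.52%. In the saline animals it had 25.9% to 26.5% in each of those types. This grouping was chosen after the values were seen and carries no test.

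**Figure D4:**
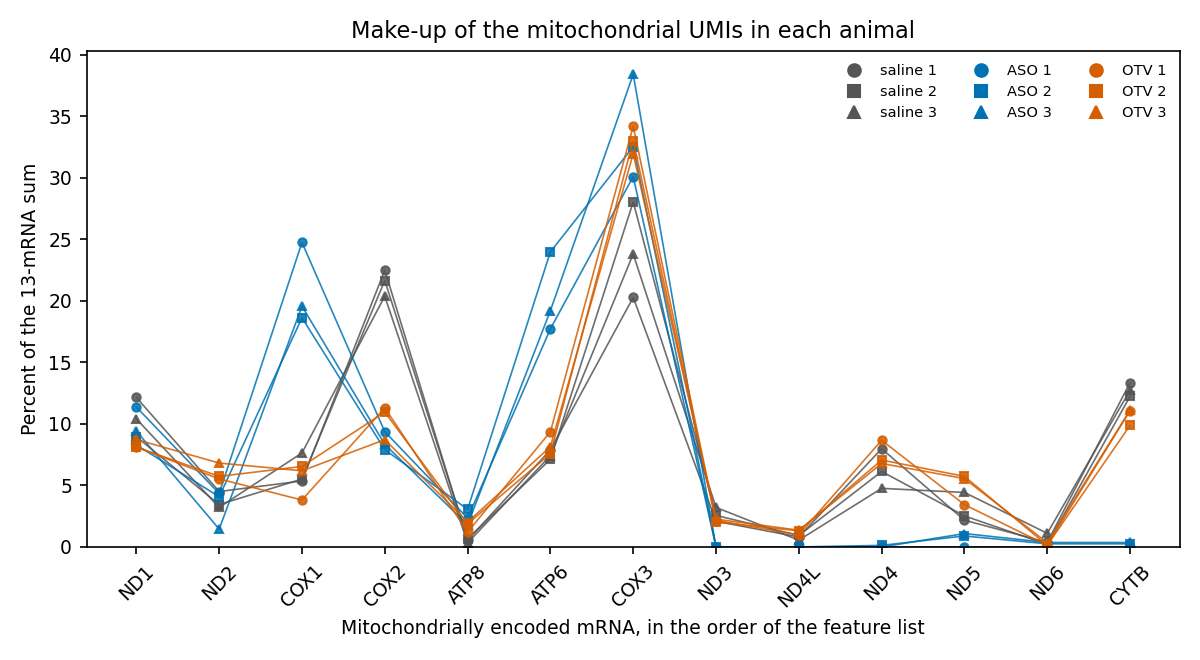
Percent of all mitochondrial mRNA UMIs taken by each of the 13 mRNAs (y axis), in the order of the feature list (x axis), with 1 line for each animal. From ND3 to CYTB the ASO lines lie near 0, while the saline and OTV lines rise again at ND4 and CYTB; COX2 lies higher in saline than in OTV, and COX3 and ND2 lower.

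At least 1 member UMI was found in 36.3%, 21.4% and 7.88% of nuclei in saline animals 1 to 3, in 0.392%, 0.882% and 0.343% in ASO and in 83.3%, 53.2% and 49.9% in OTV. After thinning each nucleus to 1000 UMIs, these shares were 7.87%, 3.36% and 1.39% in saline, 0.0584%, 0.0756% and 0.0832% in ASO and 32.6%, 15.1% and 23.5% in OTV. No nucleus was left out by thinning, since the shallowest held 1018 UMIs. No cell type in the annotation lacks mitochondria, so no type gives a background for these shares. The variance of thinned UMIs per nucleus over their mean was 0.986 to 1.09 in saline and 1.42 to 3.03 in OTV over all nuclei, where 1 is the value of a Poisson count. Within oligodendrocytes it was 1.08, 1.03 and 0.992 in saline animals 1 to 3 and 2.00, 1.08 and 1.17 in OTV animals 1 to 3, with OTV animal 2 just below saline animal 1. Within neurons it was 0.996 to 1.10 in saline and 14.3, 5.40 and 4.24 in OTV. The highest nucleus held 75 member UMIs in OTV and 10 in saline.

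From the shallowest to the deepest of 4 equal classes of all nuclei, member UMIs per nucleus grew less than total UMIs in each saline and OTV animal, by ratios of 2.22 to 2.97 against 2.70 to 4.73. In ASO animals 1 and 2 they also grew less, and in ASO animal 3, from 34 member UMIs, more (5.00 against 3.18). Within types they grew more than total UMIs in 1 saline animal each of oligodendrocytes (2.48 against 2.40), OPCs (3.02 against 2.05) and myeloid cells (2.78 against 2.14). Split at each animal's median depth, the shallower nuclei had the higher summed share in 7 of 7 animals with enough UMIs, by 0.25 ± 0.14 on the log2 scale (SD, n = 7; exact sign-flip test p = 0.0156, the smallest possible, adjusted over 5 comparisons p = 0.0781). In saline animals 1 to 3 the shallower nuclei were at 83.0, 35.3 and 14.4 CPM and the deeper at 77.4, 33.7 and 11.8. In OTV animals 1 to 3 they were at 512, 188 and 323 against 381, 154 and 243. This difference by depth was smaller than the difference between any 2 saline animals or any 2 OTV animals.
Within types the shallower nuclei were higher by 0.50 ± 0.11 in OPCs (5 of 5 animals), by 0.40 ± 0.36 in astrocytes (6 of 6), by 0.33 ± 0.41 in myeloid cells (4 of 5) and by 0.22 ± 0.21 in oligodendrocytes (6 of 7). None passed the threshold after adjustment (exact tests, adjusted p of 0.0781 to 0.188). In OPCs, myeloid cells and astrocytes the numbers of animals put the threshold out of reach, whatever the values. Across all nuclei of 1 animal, Spearman's rho between depth and share was between -0.04 and 0.11 and above 0 in 8 of 9 animals, the opposite sign to the difference in summed share. Within types it was between -0.19 and 0.11. These are a description, since depth and share both hold the nucleus's total.

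**Figure D5:**
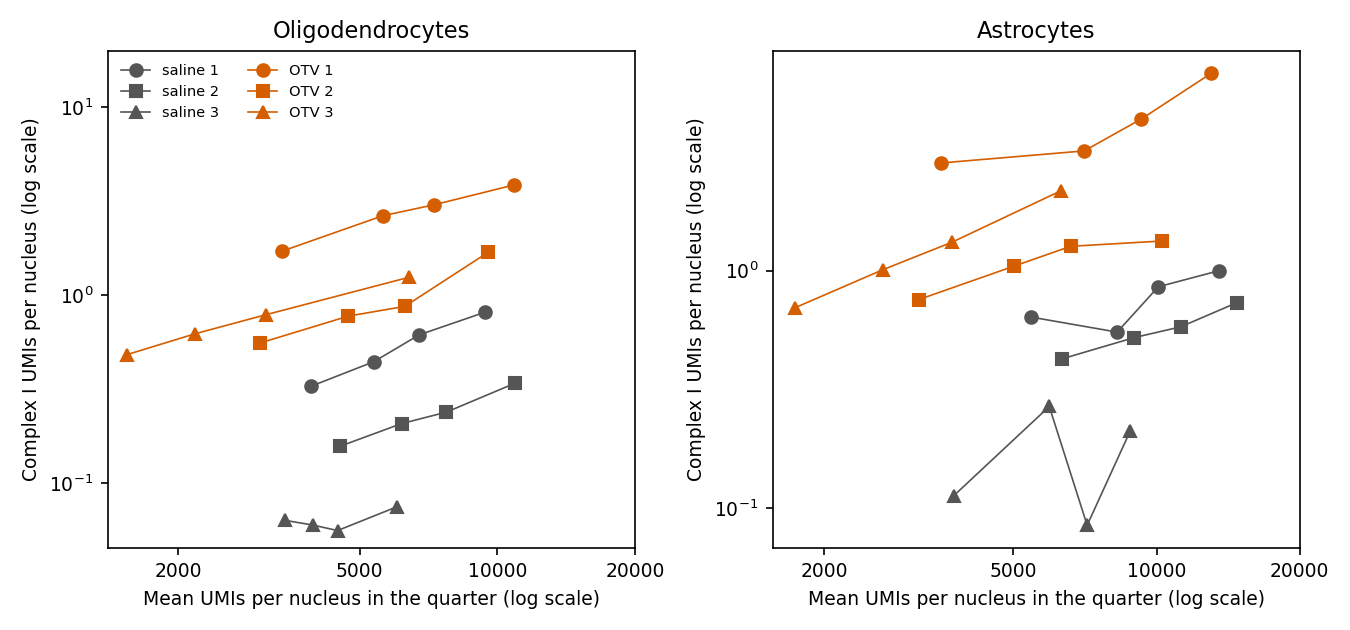
Complex I UMIs per nucleus (y axis, log scale) against mean total UMIs per nucleus (x axis, log scale) in 4 equal classes of nuclei by depth, for oligodendrocytes and astrocytes of each saline and OTV animal. At like depth the OTV lines lie above the saline lines; saline animal 3, with 68 member UMIs in oligodendrocytes, has no steady rise.

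Other genes of the pathway were tested in the same fit of all nuclei. The other 6 mitochondrial mRNAs had 5 called higher in OTV over saline, with COX2 the one not called. Among them 1, CYTB, was called lower in ASO, as were 0.0137% of all genes. Of 22 nuclear-encoded complex I subunits tested (23 of 37 listed were in the file), 3 rose and 1 fell in OTV over saline, where 5.72% of all genes were called higher and 9.93% lower, with a median of -0.25 against -0.06 over all genes. By type, 2 rose and 2 fell in oligodendrocytes, where 7.52% of genes were called higher and 11.7% lower. In OPCs it was 1 and 3 (10.2% and 11.9%), in myeloid cells 0 and 2 (4.76% and 7.26%) and in astrocytes 1 and 2 (6.27% and 9.12%). Over all nuclei the 3 were NDUFS1 (0.42), NDUFA10 (0.66) and NDUFV1 (0.93; edgeR adjusted p = 0.0374, 0.0207 and 0.0451), and the 1 was NDUFB9 (-1.11, edgeR adjusted p = 0.00446). NDUFS1 and NDUFV1 carry redox centres of the arm that takes up NADH.
Of 15 assembly factors, FOXRED1 (1.00) and ECSIT (0.84) rose (edgeR adjusted p = 0.0216 and 0.0428). Of 22 genes that express the mitochondrial genome, POLRMT, its RNA polymerase, rose by 1.32 and FASTK, which binds ND6 mRNA, by 1.05 (edgeR adjusted p = 0.0301 and 0.0178). SLIRP, which stabilises mitochondrial mRNAs together with LRPPRC, fell by 1.20 (edgeR adjusted p = 0.00523). Beside these calls, 5.72% of all genes were called higher and 9.93% lower. In ASO against saline over all nuclei, edgeR called 0 of the genes in these 3 nuclear-encoded lists, where it called 0.0137% of all genes lower. Of the listed genes 0 had an unadjusted p under 0.05.

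The genes outside the mitochondrial genome whose level over the 9 animals was most like the summed members, by Pearson's r on log2(CPM + 1) among 13166 genes, were CCDC134 (0.97), WDR45B (0.96), D2HGDH (0.96), SPATA5L1 (0.95) and CATSPER4 (0.95). All 5 span a narrow range beside the members: D2HGDH was at 53.7, 65.9 and 52.1 CPM in saline, at 32.2, 32.0 and 37.8 in ASO and at 108, 76.6 and 91.4 in OTV. These values follow 3 groups and are a description.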

How the data were processed

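The authors deposited 1 matrix of raw UMI counts per gene and nucleus and a table of nuclei with animal, cell type, cluster, a percent of ribosomal protein UMIs and a doublet score; the deposited percent and score were read for checks only. Cell Ranger 6.1.2, Seurat 4 and GRCh38.p13 are named, with no roles, per the submitters' processing notes; the matrix carries cynomolgus gene identifiers, so the build is not settled and no coordinates are given. All deposited nuclei are called singlets and none was removed here. No source used here states strand handling, so ND4L and ND4, or ND6 and its opposite strand, may share reads.

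Counts were summed per animal and cell type and tested with edgeR 4.0.16 in R 4.3.3 (quasi-likelihood, TMM, filterByExpr, all 9 animals, Benjamini-Hochberg over all genes tested, call at 0.05), with DESeq2 1.42.0 as an alternative; the step was tested on simulated data. Single values were tested with exact permutation tests over animals or sign flips within animals, two-sided, with at least 20 member UMIs in each value (100 for a member's share of the sum; the neuron ratio, with 10 in saline animal 2, is an exception). Separate animals are the replicates. Intervals of 95% (Wilson or exact) and the floor of 3 counts cover counting error only. No animal in the files lacked a label. Python 3.11.15, scipy 1.17.1 and matplotlib 3.10.9 were used.

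Named genes are all 7 members, the other 6 mitochondrial mRNAs, the 5 genes most like the members, and called genes of fixed lists (at most 3 in each direction). The members and lists were chosen with earlier results of these data known.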

Additional observations from a re-analysis of the deposited data

Results flagged for a closer look

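Neurons against oligodendrocytes went in opposite directions in saline and OTV animals. The summed complex I level in neurons over that in oligodendrocytes was 0.423, 0.995 and 0.581 in saline animals 1 to 3 and 3.82, 1.20 and 2.10 in OTV animals 1 to 3. On the log2 scale the mean was -0.68 ± 0.62 in saline and 1.09 ± 0.83 in OTV, a difference of 1.77 (SD, n = 3). It is flagged because every saline ratio lay below 1 and every OTV ratio above 1. Groups parted in this way can only give the smallest p of the exact permutation test (two-sided, p = 0.1), so that p adds nothing. Saline animal 2 lies next to a ratio of 1 and rests on 10 member UMIs in 23 nuclei. The median depth of neurons was 13139 to 16058 UMIs in saline and 4445 to 13880.5 in OTV, and neuron markers (6 of 7 in the file) summed to 3223 to 3666 CPM in saline and to 3776 to 4809 in OTV. Of these, SLC17A6, a glutamate transporter of excitatory neurons, was at 1.25, 82.9 and 0.246 in saline animals 1 to 3 and at 31.8, 33.3 and 6.49 in OTV animals 1 to 3. GAD1 and GAD2, of the same list, stood above it in each animal. GAD1 was at 247 to 268 in saline and 134 to 289 in OTV, and GAD2 at 278 to 355 and 210 to 514. Endothelial markers (CLDN5, FLT1, PECAM1 and VWF, 3 of 4 in the file) summed to 45.4, 399 and 3.94 CPM in the neurons of saline animals 1 to 3 and to 943, 30.7 and 185 in those of OTV animals 1 to 3. Oligodendrocyte markers summed to 202 to 376 in neurons of the saline animals and to 284 to 831 in OTV. The part of depth and of these markers in the difference was not tested.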

How the results depend on the processing

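Directions held for every member's fold change in each contrast, cell type and alternative run. The summed share kept its order of OTV over saline in all nuclei and in the 4 types under each alternative, with log2 ratios of 2.18 to 3.63. Counts of members called moved more. For ASO against saline, DESeq2's Wald test called 7 in all nuclei and 6 each in OPCs, myeloid cells and astrocytes, where it called 0.802%, 0.752%, 1% and 0.213% of genes lower. With only the 6 compared animals, edgeR called 0 in all nuclei, 2 in oligodendrocytes, 0 in OPCs and 0 in myeloid cells. With no filter on low counts it called 3 in oligodendrocytes and 2 in astrocytes. For OTV against saline, myeloid cells had 3 calls with no filter and 3 with only the 6 animals. In all nuclei, calls of single members in that contrast also moved over 14 alternative runs, which include those without 1 animal. ND5 was called in 14, ND2 and ND3 in 11 each, ND4L in 10, ND4 in 6, ND1 in 5 and ND6 in 1.

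Leaving out 1 animal gave, for ASO against saline, 0 to 5 calls in all nuclei, 1 to 6 in oligodendrocytes, 0 to 4 in OPCs, 0 to 2 in myeloid cells and 0 to 1 in astrocytes. For OTV against saline it gave 1 to 6 in all nuclei, 1 to 7 in oligodendrocytes, 2 to 5 in myeloid cells and 3 to 6 in astrocytes. For OTV against ASO the counts stayed at 6 or 7. The cause was not tested, beyond the fewer animals.

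In nuclei with 1000 to 5000 UMIs, oligodendrocytes minus OPCs became -0.40 and OPCs minus myeloid cells 0.56 on the log2 scale. Both were reversed, and neither could pass the threshold with 4 animals. Oligodendrocytes minus myeloid cells was -0.00709 as a mean over nuclei, and -0.0236 to 0.0972 with 1 animal left out. With a minimum of 20 member UMIs the ASO animals entered the test of shares of the sum. ND1, ND3, ND4 and ND4L then passed it (adjusted p = 0.025, 0.025, 0.0438 and 0.025, exact permutation test of 3 groups). Their mean shares in the ASO animals were 69.9%, 0%, 0.312% and 0%. OTV minus saline stayed at -10.6, -2.54, 2.04 and 1.18 percentage points, a contrast that the test of 3 groups does not address. For OTV against saline alone the exact permutation test gave p = 0.1, 0.3, 0.7 and 0.2. Without 1 animal, the ND4 difference ran from -0.781 to 3.89 points. The comparison of type differences between groups gave no value in the 1000 to 5000 UMI window, where too few animals had 20 member UMIs. No paired analysis was possible because replicates are numbered here in sample order, and no label ties an animal of 1 group to an animal of another. The ASO animals held 34 to 107 member UMIs each in libraries of 55628940 to 98850459 UMIs, while saline animal 3 held 250 in 19981249. OPCs, myeloid cells and astrocytes of the ASO animals held under 20 member UMIs each and gave no value in the tests of type and depth.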

Other observations

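Nuclei that the authors named unknown had a summed complex I level of 111, 21.3 and 32.8 CPM in saline animals 1 to 3, of 0 in each ASO animal and of 256, 176 and 239 in OTV animals 1 to 3. Pericyte markers (PDGFRB and RGS5) summed to 261 to 3578 CPM in these nuclei across the 9 animals, against 11.7 to 24.6 in oligodendrocytes. Astrocyte markers summed to 296 to 2249 CPM in the same nuclei, above the pericyte sum in the 3 saline animals and in ASO animal 3. In neurons of the ASO animals the members had 0, 1 and 2 UMIs in 18, 17 and 467 nuclei.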
